A study of Mus musculus with 6 samples.

Results

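The genes described are those of the voltage-gated sodium and calcium channels of the mouse: every protein-coding gene whose symbol in the GENCODE vM21 annotation starts with Scn and names a pore or beta subunit, starts with Cacna, or is Cacnb1 to Cacnb4. The rule uses names and no measured value. It found 32 genes among 34289 to which the counts were summed, and 28 of the 32 passed the filter on low counts. RNA was sequenced from postmitotic neurons of the cortex at stage E14.5. There were 3 control libraries, from Rp58+/+ cortices, and 3 mutant libraries, from Rp58-/- cortices. RP58 is the protein of Zbtb18, a zinc finger repressor of transcription that cortical neurons need in order to mature. The design asks what deletion of this repressor does to neuronal transcripts. The labels name no strain, litter or sex and do not say whether embryos were pooled, so p-values measure the spread between these libraries, which may be technical.

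Voltage-gated sodium channels open when a membrane is depolarised and carry the rising phase of the action potential. Their pore is formed by 1 alpha subunit (the Scn genes whose symbol ends in a, with Scn7a as a diverged relative), and beta subunits (those ending in b) adjust gating and act in cell adhesion. High-voltage calcium channels have a Cacna1 pore, an intracellular beta subunit (Cacnb) and an extracellular alpha2delta subunit (Cacna2d), which bring the pore to the membrane and shape its currents. T-type calcium channels (Cacna1g, Cacna1h and Cacna1i) open at small depolarisations and need no beta or alpha2delta subunit. In the embryonic cortex Scn3a is known as an early, fetal sodium channel, while Scn1a, Scn2a and Scn8a carry most sodium current of mature brain neurons.

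Promoter windows of 3 genes are shown here. Cacnb2 and Cacna1i are among the genes whose transcripts changed most. Cacnb2 and Cacna1c each have a window with the binding motif of RP58. The sequences are from RefSeq on build GRCm38.p6 and run 5′ to 3′ on the strand of the gene, from 250 bases before to 50 bases after the annotated start of a transcript. Capitals mark matches on either strand to ACATCTG, the known motif of RP58, or to CAGATG, the E-box within its reverse complement, so that every match to the first is also one to the second.
Cacnb2, chr2:14604056-14604355, + strand: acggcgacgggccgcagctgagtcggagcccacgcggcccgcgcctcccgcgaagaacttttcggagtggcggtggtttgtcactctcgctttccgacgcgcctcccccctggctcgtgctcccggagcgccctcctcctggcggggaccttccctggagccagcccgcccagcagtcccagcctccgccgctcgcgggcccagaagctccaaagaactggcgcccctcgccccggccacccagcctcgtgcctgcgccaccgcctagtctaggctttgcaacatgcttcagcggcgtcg
Cacnb2, chr2:14823842-14824141, + strand: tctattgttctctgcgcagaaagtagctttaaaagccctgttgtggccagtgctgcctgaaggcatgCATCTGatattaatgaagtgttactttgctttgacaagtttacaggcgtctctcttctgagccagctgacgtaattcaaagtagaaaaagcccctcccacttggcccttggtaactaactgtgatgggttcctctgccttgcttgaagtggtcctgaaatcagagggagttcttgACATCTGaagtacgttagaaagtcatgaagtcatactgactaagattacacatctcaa
Cacna1c, chr6:119108446-119108745, - strand: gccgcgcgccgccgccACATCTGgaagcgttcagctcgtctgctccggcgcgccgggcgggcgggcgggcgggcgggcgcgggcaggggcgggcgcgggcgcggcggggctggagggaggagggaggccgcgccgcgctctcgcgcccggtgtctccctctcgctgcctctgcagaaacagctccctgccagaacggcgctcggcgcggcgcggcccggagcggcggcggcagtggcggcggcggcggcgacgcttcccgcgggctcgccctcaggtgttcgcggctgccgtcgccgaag
Cacna1i, chr15:80286988-80287287, + strand: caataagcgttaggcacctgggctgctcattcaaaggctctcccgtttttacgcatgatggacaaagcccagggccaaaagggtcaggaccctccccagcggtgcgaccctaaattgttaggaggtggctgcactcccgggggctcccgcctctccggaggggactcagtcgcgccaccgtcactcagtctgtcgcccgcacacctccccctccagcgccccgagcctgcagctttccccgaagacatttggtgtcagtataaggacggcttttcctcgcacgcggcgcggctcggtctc
The second Cacnb2 window holds ACATCTG beginning 8 bases before the start, and a further E-box beginning 183 bases before it. The Cacna1c window printed here holds ACATCTG beginning 234 bases before the start. Other windows of Cacna1c are not printed. That at chr6:118757925-118758224 holds CAGATG without ACATCTG, and that at chr6:119196360-119196659 holds neither motif. The first Cacnb2 window and that of Cacna1i hold neither motif. RefSeq windows were found for 24 of the 32 genes and came to 34. ACATCTG stood in 2 of the 34 (5.88%), those of Cacnb2 and Cacna1c, beside 1454 of the 32851 windows of all genes (4.43%). CAGATG stood in 7 of the 34 (20.6%) beside 5635 of all windows (17.2%), in Cacna1c, Cacna1f, Cacna1s, Cacnb2, Cacnb3 and Scn7a. The genes with no window in the table included Cacna1a, Cacna1g, Cacna1h, Cacna2d4, Scn3a and Scn3b. A match describes the letters of a window and does not show binding.

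The 6 libraries held between 34645505 and 75892649 estimated counts. They fell into 2 sets by the effective lengths in their tables, read from transcripts over 2000 bases. In the fixed-length set of control 1, mutant 1 and mutant 2, length exceeded effective length by 249 bases in all of these transcripts. In the estimated-length set of control 2, control 3 and mutant 3, length exceeded effective length by 134 to 139 bases. The labels name no such sets. Each genotype has a single library in one of them, so the main test was edgeR's quasi-likelihood test with a term for genotype and a term for set, and a gene was called where its p, adjusted by the Benjamini-Hochberg method, was under 0.05. The common biological coefficient of variation was 0.186 with the set term and 0.701 without it. Values are given in the order of library numbers 1, 2 and 3 in each genotype. Zbtb18 itself stood at 1902, 1587 and 1697 CPM (counts scaled to the normalised library size) in the 3 controls, and at 46.7, 45.7 and 538 in the 3 mutants. The library labelled mutant 3 thus kept more Zbtb18 RNA than the other two, and the fall was 3.48 ± 0.81 (log2, SE; adjusted p = 0.0337, or 0.400 without the set term). Results are therefore also given without mutant 3, which leaves the comparison to the fixed-length set.

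Of the 28 tested channel genes, 7 changed and the others were not called. Among them Cacnb2, Cacna1g, Scn3a and Cacna2d1 rose in the mutant, and Cacna1i and Cacnb4 fell. The called genes were 25% of the 28 tested, where 14.9% of all 16985 genes were called. Rises were 5 beside 7.92% of all genes, and falls were 2 beside 7.01%. The median log2 fold change of the 28 genes was -0.02, and that of all genes tested was -0.00077. Without the set term only Cacnb2 was called among the 28, and 2.36% of all genes were. Of all calls, 53.1% were rises with the set term and 67.5% without it. In 7 tested channel genes the 3 mutant libraries did not overlap the 3 controls. Of these, 4 were higher, Cacnb2, Cacna1g and Cacna2d3 among them, where 8.8% of all genes were, and 3 were lower, Cacna1i and Cacnb4 among them, where 6.64% were. Without mutant 3 there were 4 rises (Cacnb2, Cacna1g and Scn3a among them) and 1 fall (Cacna1i). Cacna2d1 (adjusted p = 0.232, edgeR) and Cacnb4 (0.153) were no longer called. No share of all genes called is given for this fit, so its counts have no background to be read against.

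**Figure D1:**
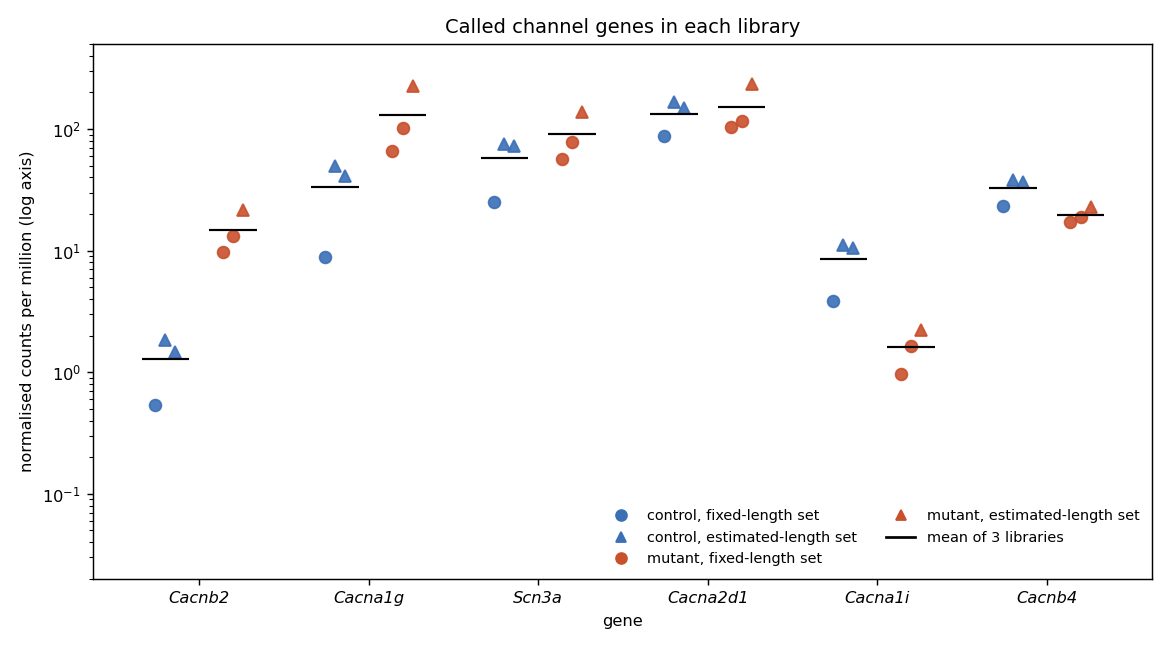
Normalised counts (CPM, log axis) of the 6 called channel genes described here in each of the 6 libraries, with circles for the fixed-length set, triangles for the estimated-length set and bars for the mean of 3 libraries of a genotype. Mutant libraries lie above all controls for Cacnb2 and Cacna1g and below them for Cacna1i and Cacnb4, while for Scn3a and Cacna2d1 the genotypes overlap across sets.

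Of the 10 sodium channel pore genes, 8 were tested, 2 rose and none fell, with a median log2 fold change of 0.83. Scn3a (ENSMUSG00000057182, chromosome 2), the fetal sodium channel, stood at 25.2, 75.7 and 72.9 CPM in the 3 controls and at 56.8, 78.3 and 139 CPM in the 3 mutants. The mutants were higher within each set, but mutant 1 of the fixed-length set was below both controls of the estimated-length set. The rise was 2.23-fold (log2 1.15 ± 0.17 SE, adjusted p = 0.00563 in edgeR, 0.997 without the set term). It was 2.68-fold among the fixed-length libraries and 1.87-fold among the estimated-length ones, and without control 1 its adjusted p was 0.0520.

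The other brain pores were not called. Scn2a, the main sodium pore of young axons, stood at 16.1, 48.2 and 44.8 CPM in the controls and at 12.6, 16.3 and 26.1 CPM in the mutants. Its log2 difference was -0.50 ± 0.18 (edgeR adjusted p = 0.122), and it fell within the estimated-length set alone (-0.83, adjusted p = 0.0486), a difference between sets that was not called. Scn1a, the pore of fast-spiking interneurons, stood at 5.18, 10.6 and 13.6 CPM in the controls and at 1.99, 4.02 and 6.86 CPM in the mutants (log2 -0.80 ± 0.29, adjusted p = 0.121). Scn8a, which gathers at the initial segment of axons, stood at 30.4, 44.6 and 43.5 CPM in the controls and at 41.0, 81.6 and 52.6 CPM in the mutants (log2 0.63 ± 0.30, adjusted p = 0.219). In all 3 genes the direction was the same within both sets.

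Compared per length (TPM, a count scaled by transcript length and library total), Scn3a was the most abundant sodium pore in every library. Its share of the summed TPM of the 10 pores was 47.0 ± 3.59% in the controls and 57.7 ± 10.6% in the mutants (mean ± SD, n = 3). The genotypes overlapped, at 43.4, 50.6 and 46.9% in the controls and 55.1, 48.6 and 69.3% in the mutants. The share of Scn2a was 16.5, 21.9 and 21.7% in the controls and 9.25, 7.81 and 9.16% in the mutants, with no overlap. That of Scn1a was 5.79, 4.70 and 5.91% in the controls and 1.62, 2.25 and 2.06% in the mutants, again apart. Shares are a description and had no test, since a share also moves when another member of its group does.

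The pores of peripheral sensory neurons and of muscle were rare. Scn9a, Scn11a and Scn4a reached at most 1.52, 0.569 and 0.486 CPM in any library, and their log2 differences of 0.63 ± 0.57, 1.04 ± 0.82 and 1.18 ± 0.66 were not called. Markers of skeletal and cardiac muscle summed to between 0.795 and 2.98 CPM over 10 genes in the controls and between 0.655 and 3.30 in the mutants. Among them, Tnnt2, Actc1 and Myog did not pass 0.071 CPM in any library. Myh7 stood at 0.318, 2.26 and 1.63 CPM in the controls and at 0.347, 0.131 and 2.05 in the mutants. Acta1 reached 0.607 CPM in mutant 3, and neither Myh7 nor Acta1 was called. Scn10a had 0, 1 and 7 reads in the controls and 10, 10 and 13 in the mutants, and Scn7a had 0, 4 and 23 in the controls and 1, 0 and 27 in the mutants, and neither was tested. Markers of peripheral sensory neurons moved with genotype: their sum over 7 genes was between 1.49 and 2.08 CPM in the controls and between 6.85 and 8.08 in the mutants. Pou4f1 (0.562 ± 0.081 to 3.48 ± 0.52 CPM) rose, while Isl1 was at most 0.061 and Prph at most 0.162 CPM in every library. Their part in the levels of these pores was not tested.

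No sodium channel beta subunit was called among the 3 tested. Scn3b was the most abundant, with 88.2 to 92.8% of the summed TPM of the 4 beta genes in every library. It stood at 134, 101 and 92.7 CPM in the controls and at 129, 118 and 77.0 CPM in the mutants, which overlap (log2 -0.23 ± 0.09, edgeR adjusted p = 0.156). Scn2b stood between 6.18 and 10.1 CPM in all 6 libraries (log2 -0.26 ± 0.19, adjusted p = 0.423), and Scn4b had at most 13 reads and was not tested.

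**Figure D2:**
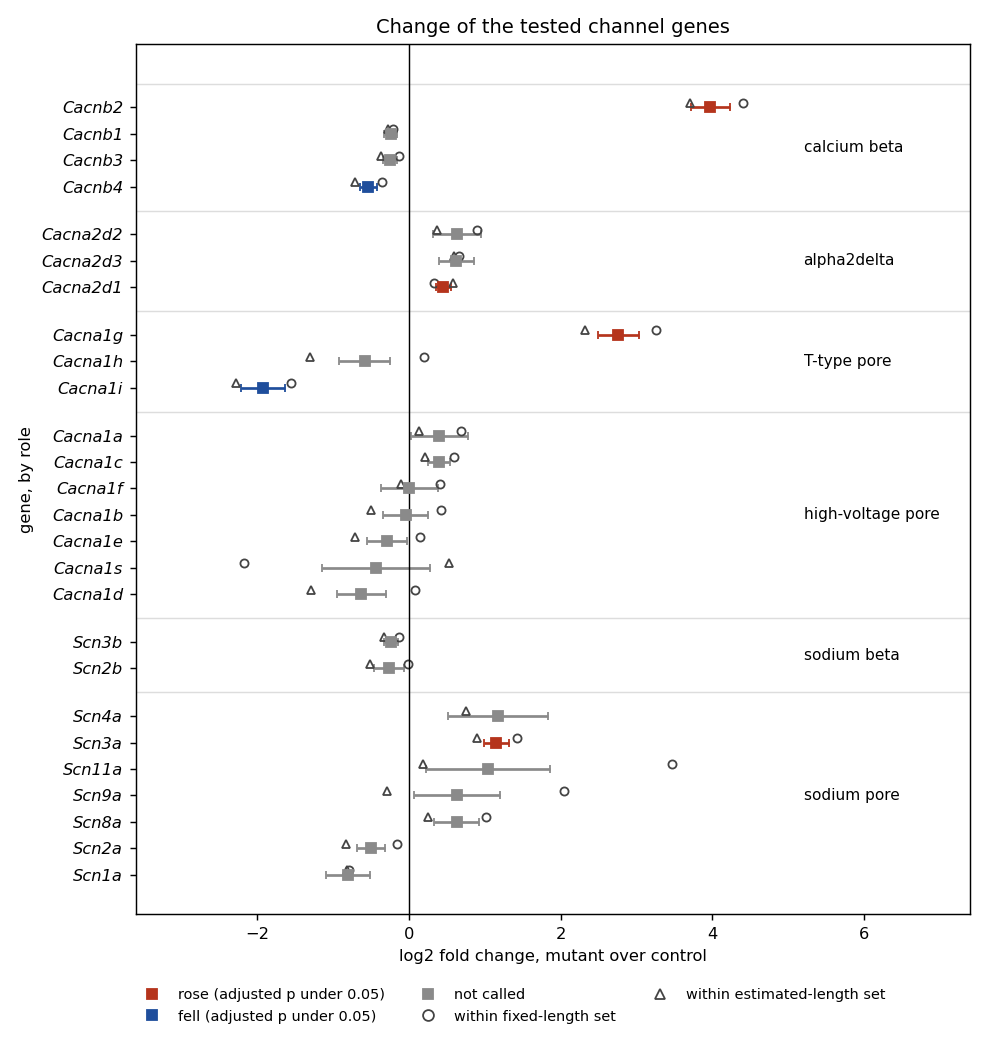
Log2 fold change, mutant over control, of the tested channel genes described here, by role, with bars of 1 SE (squares, both sets) and the changes within the fixed-length set (circles) and the estimated-length set (triangles); Scn4a has no circle because control 1 had no reads of it. Red squares mark rises and blue squares falls, and most triangles lie to the left of their circles.

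T-type calcium pores showed both a large rise and a large fall. Cacna1g (ENSMUSG00000020866, chromosome 11), the T-type channel of thalamic and other rebound-firing neurons, stood at 8.81, 49.5 and 41.0 CPM in the 3 controls and at 66.3, 102 and 226 CPM in the 3 mutants. All mutants lay above all controls, and control 1 was the lowest library. The rise was 6.77-fold (log2 2.76 ± 0.27 SE, edgeR adjusted p = 0.00104, 0.447 without the set term), 9.56-fold among the fixed-length libraries and 4.99-fold among the estimated-length ones. Cacna1i (ENSMUSG00000022416, chromosome 15), a slowly inactivating T-type channel, stood at 3.82, 11.1 and 10.5 CPM in the controls and at 0.965, 1.63 and 2.23 CPM in the mutants, with no overlap. It fell 3.80-fold (log2 -1.93 ± 0.29 SE, adjusted p = 0.00611, 0.119 without the set term), 2.94-fold among the fixed-length libraries and 4.86-fold among the estimated-length ones. With kallisto's effective lengths as an offset the log2 difference was -1.61 and was not called (adjusted p = 0.0677), and over the 16 alternatives it was between -2.40 and -1.55.

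Cacna1h, the remaining T-type pore, had unlike changes in the 2 sets, but the difference between sets was not called. It stood at 17.0, 136 and 147 CPM in the controls and at 17.9, 21.0 and 57.1 CPM in the mutants, so that control 1 lay with the mutants. It fell within the estimated-length set (log2 -1.31, adjusted p = 0.00522) and had a difference of 0.20 within the fixed-length set (adjusted p = 0.462). The difference between sets was -1.51, with an unadjusted p of 0.0004 and an adjusted p of 0.117 in edgeR's interaction test. Over both sets its log2 difference was -0.58 ± 0.33 (adjusted p = 0.300).

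In the make-up of the T-type group, Cacna1g made 40.3, 26.3 and 25.8% of the summed TPM of the 3 pores in the 3 controls and 78.2, 80.0 and 80.8% in the 3 mutants, or 30.8 ± 8.25% against 79.7 ± 1.33% (mean ± SD, n = 3). Cacna1h made 57.4, 69.9 and 69.9% in the controls and 21.4, 19.5 and 18.6% in the mutants. The most abundant T-type pore per length was thus Cacna1h in every control library and Cacna1g in every mutant library. Cacna1i made 2.30, 3.82 and 4.34% in the controls and 0.340, 0.545 and 0.586% in the mutants. From CPM in place of TPM, the share of Cacna1g was 25.2% in the controls and 79.6% in the mutants, and that of Cacna1i was 7.95% in the controls and 1.07% in the mutants.

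**Figure D3:**
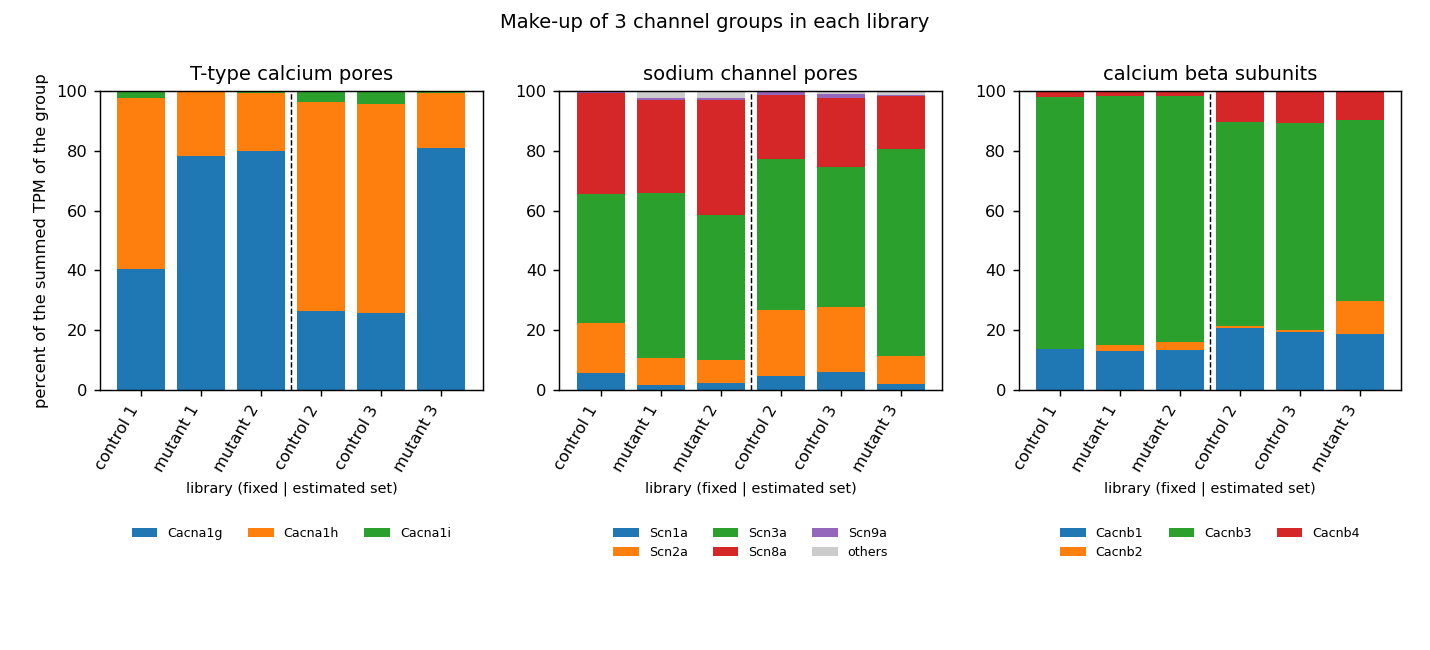
Percent of the summed TPM of the T-type calcium pores, the sodium channel pores and the calcium channel beta subunits taken by each gene in each library, with the fixed-length set to the left of the dashed line and the estimated-length set to its right. Cacna1g takes 25.8 to 40.3% of the T-type pores in the controls and 78.2 to 80.8% in the mutants, while Cacnb3 and Scn3a lead their groups in both genotypes.

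None of the 7 high-voltage calcium pores was called, and their median log2 fold change was -0.04. Cacna1b, the N-type pore of presynaptic terminals, had the highest mean TPM of the group over all 6 libraries, while Cacna1e, the R-type pore, had the highest in the controls (7.17). The lead changed between libraries. By TPM, Cacna1b led in mutants 1 and 2, Cacna1e in controls 2 and 3, and Cacna1a in control 1 and mutant 3. Cacna1b stood at 38.3, 146 and 99.6 CPM in the controls and at 39.6, 63.4 and 87.0 CPM in the mutants (log2 -0.04 ± 0.30, edgeR adjusted p = 0.951). Its estimated-length libraries were higher in both genotypes. Cacna1e stood at 44.8, 324 and 340 CPM in the controls and at 37.1, 62.0 and 204 in the mutants (log2 -0.28 ± 0.27, adjusted p = 0.533). Cacna1c, an L-type pore that couples activity to transcription, has ACATCTG in the promoter window printed above. It stood at 24.5, 86.6 and 87.2 CPM in the controls and at 31.5, 42.6 and 101 in the mutants (log2 0.40 ± 0.15, adjusted p = 0.129). Its share of the summed TPM of the high-voltage pores was 15.3 to 17.5% in the controls and 20.2 to 24.2% in the mutants.

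Cacna1d, the other L-type pore of neurons, stood at 5.25, 19.7 and 24.2 CPM in the controls and at 5.33, 5.80 and 8.97 in the mutants. It fell within the estimated-length set (log2 -1.29, adjusted p = 0.0218) and had a difference of 0.08 within the fixed-length set (adjusted p = 0.867). Over both sets its log2 difference was -0.63 ± 0.32 (edgeR adjusted p = 0.256). Cacna1a, the P/Q-type pore, stood between 12.1 and 55.9 CPM over the 6 libraries (log2 0.40 ± 0.37, adjusted p = 0.535). Cacna1f, the L-type pore of photoreceptors, and Cacna1s, that of skeletal muscle, stayed under 0.8 CPM in every library and were not called (adjusted p = 0.995 and 0.741). The photoreceptor markers summed to between 0.540 and 2.96 CPM in the controls and between 0.367 and 3.04 in the mutants.

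Among alpha2delta subunits, Cacna2d1 rose slightly and the other two tested were not called. Cacna2d1 (ENSMUSG00000040118, chromosome 5), a binding site of gabapentin, stood at 87.6, 167 and 148 CPM in the controls and at 104, 115 and 235 CPM in the mutants. The mutants were higher within each set and overlapped the controls across sets. The rise was 1.37-fold (log2 0.45 ± 0.10 SE, adjusted p = 0.0291 in edgeR, 0.997 without the set term). It was not called within either set (1.25-fold among the fixed-length libraries and 1.50-fold among the estimated-length ones). Over the 6 fits that leave out a library, its edgeR adjusted p reached 0.232. It lost its call without control 1, control 2, control 3 or mutant 3. It also lost it when each library's length trend was removed (log2 0.28, adjusted p = 0.133). Cacna2d3, of fast central synapses, stood at 20.6, 16.7 and 14.3 CPM in the controls and at 42.2, 22.7 and 23.4 in the mutants, all higher (log2 0.63 ± 0.24, adjusted p = 0.132). Cacna2d2 stood at 10.4 to 17.3 CPM in the controls and 12.3 to 26.6 in the mutants (log2 0.63 ± 0.32, adjusted p = 0.242). Cacna2d4, a subunit of the retina, had 0, 7 and 2 reads in the controls and 7, 11 and 19 in the mutants and was not tested.

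Among the calcium channel beta subunits, Cacnb2 (ENSMUSG00000057914, chromosome 2) had the largest change of the 32 genes. Its protein is the main beta subunit of heart and is also made in brain. It stood at 0.540, 1.83 and 1.47 CPM in the 3 controls and at 9.73, 13.3 and 21.6 CPM in the 3 mutants. The lowest mutant was well above the highest control. The rise was 15.7-fold (log2 3.97 ± 0.25 SE, adjusted p = 0.000178 in edgeR's quasi-likelihood test, 0.0415 without the set term), which ranks 106th among all tested genes ordered by log2 fold change. It was 21.3-fold among the fixed-length libraries and 13.1-fold among the estimated-length ones. Without mutant 3 the log2 value was 4.40 (adjusted p = 0.00313). The counts behind it were 17, 123 and 62 reads in the controls and 504, 709 and 1068 in the mutants. In spite of the rise it remained a minor subunit, with 0.166 to 0.786% of the summed TPM of the 4 beta genes in the controls and 2.20, 2.80 and 10.9% in the mutants. From protein-coding transcripts of at least 2000 bases alone, its mean share was 0.187% in the controls and 2.41% in the mutants, and that of mutant 3 was 3.30%.

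Cacnb4 (ENSMUSG00000017412, chromosome 2), whose level in brain increases as neurons mature, stood at 23.3, 37.9 and 36.6 CPM in the controls and at 17.3, 19.1 and 22.8 CPM in the mutants. All mutants were lower, and mutant 3 lay just under control 1. The fall was 1.45-fold (log2 -0.53 ± 0.11 SE, edgeR adjusted p = 0.0219, 0.357 without the set term). It was 1.28-fold within the fixed-length set, where it was not called (adjusted p = 0.152), and 1.63-fold in the estimated-length set (adjusted p = 0.0275). Its adjusted p was between 0.0109 and 0.153 in the fits that leave out a library, and the call was lost without control 2, control 3, mutant 1 or mutant 3. Cacnb3, the most abundant beta subunit, made 84.3, 68.2 and 69.3% of the summed TPM of its group in the controls and 83.4, 82.2 and 60.7% in the mutants. It stood at 335, 185 and 184 CPM in the controls and at 299, 311 and 144 in the mutants (log2 -0.25 ± 0.09, adjusted p = 0.123). Cacnb1 stood at 68.7, 55.2 and 48.4 CPM in the controls and at 57.0, 61.8 and 43.0 in the mutants (log2 -0.24 ± 0.09, adjusted p = 0.125). For both genes the libraries divide by set more than by genotype.

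Single transcripts of the channel genes were tested in the same way over 42824 transcripts. Of the 163 listed for the 32 genes, 92 were tested and 3 rose, where 1.11% of all transcripts rose. Cacna1g-205 (ENSMUST00000107786), a protein-coding transcript, stood at 3.40, 5.96 and 5.46 CPM in the controls and at 20.6, 24.6 and 35.8 CPM in the mutants (log2 2.69 ± 0.15, edgeR adjusted p = 0.00507). Cacnb2-203 (ENSMUST00000114723), a protein-coding transcript, stood at 0.476, 0.952 and 0.539 CPM in the controls and at 10.5, 13.5 and 8.26 in the mutants (log2 4.01 ± 0.45, adjusted p = 0.0255). Its annotated start is that of the first Cacnb2 window printed above, which holds no motif match. The window with ACATCTG is at the start of another annotated transcript, which was not analysed here. Cacnb2-204, a transcript with a retained intron, stood at 0, 0.241 and 0.173 CPM in the controls and at 0.132, 0.367 and 5.74 in the mutants (log2 4.90 ± 0.70, adjusted p = 0.0476), so that mutant 3 sets it apart. Without the set term none of these transcripts was called. kallisto divides the reads that transcripts share, so these values are less certain than those of whole genes. In Cacna2d1 the division followed the sets: Cacna2d1-204, of 3412 bases, took 46.2 to 47.0% of the TPM of its gene in the estimated-length libraries and 0.238 to 0.514% in the fixed-length ones, in both genotypes.

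The change of the channel genes was lower in the estimated-length set than in the fixed-length set for 26 of 28 genes (92.9%), and for 58.2% of the 14225 protein-coding genes tested. The only mutant of the estimated-length set is mutant 3, which kept more Zbtb18 RNA, and the only control of the fixed-length set is control 1. All values within a set rest on these single libraries. A difference between sets cannot be told apart from a trait of either library. In the fixed-length set 5 channel genes passed the test (17.9%, where 9.46% of all genes were), namely 4 rises, with Cacnb2, Cacna1g and Scn3a among them (6.05% of all genes rose), and the fall of Cacna1i (3.41% fell). In the estimated-length set 10 passed it (35.7%, where 7.92% of all genes were), namely rises of the same 4 genes (4.6% of all genes rose) and 6 falls, with Cacna1i, Cacnb4, Scn2a, Cacna1d and Cacna1h among them (3.32% fell). The median log2 fold change of the 28 genes was 0.37 among the fixed-length libraries and -0.19 among the estimated-length ones, beside 0.0041 and -0.03 for all genes. In the test of the difference between sets none of the 28 was called, and 0.153% of all genes were. At an unadjusted p under 0.05 there were 6 (Cacna1h, Cacna1d, Scn9a and Scn2a among them), beside 7.19% of all genes, and DESeq2 called 1.

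Length and library set moved together across the genome, and the channel transcripts are long. Of the 28 genes, 13 have a longest listed transcript over 8000 bases. The set effect, estimated-length over fixed-length at equal genotype, had a median log2 of 1.18 in the 28 genes and -0.07 in the 14225 protein-coding genes tested. It was above 0 in 22 of the 28, from 3.18 in Cacna1f and 2.46 in Cacna1e down to -0.97 in Cacnb3. Over all protein-coding genes its median was -0.58 for transcripts under 1000 bases and 1.16 for the 655 genes over 8000 bases. Across the 28 genes it correlated with the longest transcript at r = 0.62 (Spearman rho 0.51). Across the 14225 protein-coding genes tested the values were lower, r = 0.17 (rho 0.35). All values come from the same 6 libraries. The gap between the genotype changes of the sets had a median of 0.019 in genes under 1000 bases and -0.22 in genes over 8000 bases. In the channel genes, long and short, its median was -0.61. The median change within the fixed-length set was 0.33 in genes over 8000 bases and 0.37 in the channel genes. Within the estimated-length set these medians were 0.099 and -0.19, of opposite sign. Whether length accounts for the gap of the channel genes was not tested. Within the fixed-length set, mutant 2 was above mutant 1 in 24 of the 28 genes (85.7%) and in 45.6% of protein-coding genes, with a median log2 ratio of 0.23 in genes over 8000 bases and 0.44 in the channel genes.

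**Figure D4:**
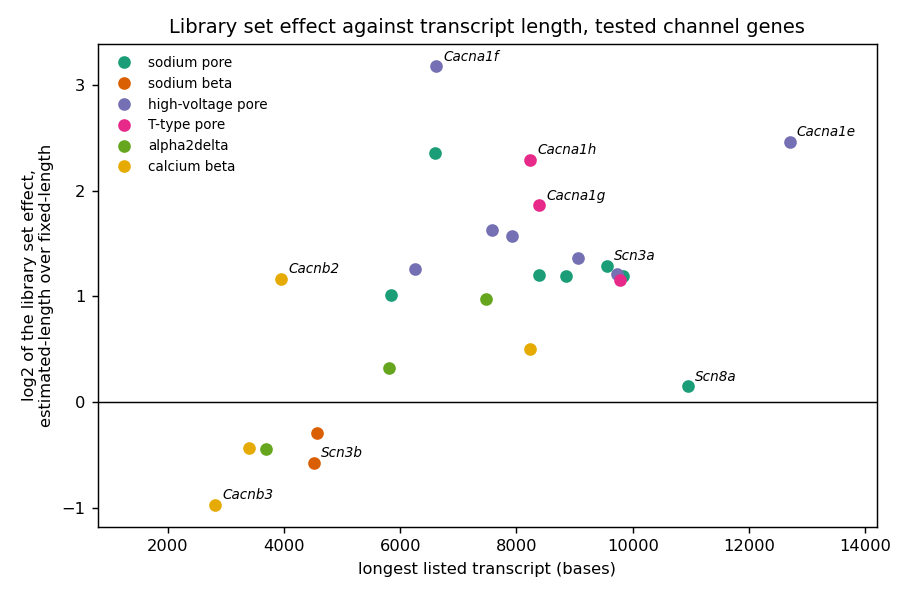
Log2 of the library set effect (estimated-length over fixed-length, at equal genotype) against the longest listed transcript in bases for the tested channel genes described here, coloured by role. Most genes with transcripts over 6000 bases lie between 0 and 3.18, and Cacnb3, with a short transcript, lies at -0.97.

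The fit was therefore repeated after each library's median log ratio was removed within 20 bins of transcript length, a setting chosen after the data were seen. Then 9 of the 28 channel genes were called, beside 15.4% of all genes, with 4 rises (7.42% of all genes rose) and 5 falls (7.98% fell). Cacnb2 (log2 3.94, edgeR adjusted p = 0.000154), Cacna1g (2.50, adjusted p = 0.000500) and Scn3a (0.90, adjusted p = 0.00233) were among the rises. Cacna1i (-2.18, adjusted p = 0.00146), Cacnb4 (-0.78, adjusted p = 0.00206), Scn2a (-0.76, adjusted p = 0.0120), Scn1a (-1.07, adjusted p = 0.0294) and Cacnb1 (-0.31, adjusted p = 0.0468) fell.

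Genes of related pathways, from lists chosen by function, were read in the main fit, with the set term. In that fit 14.9% of all genes were called, 7.92% as rises and 7.01% as falls. The counts of each list below stand beside these shares, and no list was tested as a set. Of 12 partners of sodium channels, 2 rose and 3 fell, with a median log2 fold change of -0.12. Fgf13, which binds sodium channels and microtubules, went from 32.8 ± 21.9 to 80.2 ± 39.8 CPM (mean ± SD, n = 3 libraries; log2 0.81 ± 0.08, edgeR adjusted p = 0.00134). Fgf11, of the same family, went from 18.8 ± 6.49 to 9.66 ± 3.82 CPM (log2 -1.28 ± 0.16, adjusted p = 0.00294). Nrcam, an adhesion protein of the axon initial segment, went from 22.4 ± 9.68 to 62.0 ± 5.72 CPM (log2 1.74 ± 0.24, adjusted p = 0.00442). Fgf14 and Nedd4l also fell.

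Of 21 tested regulators and scaffolds of calcium channels, Cacng3, Cacng4 and Cacng5 rose and Cacng8 and Stac2 fell, with a median of 0.06. The Cacng genes are named for a calcium channel gamma subunit, and these 4 are best known as auxiliary subunits of AMPA receptors. Cacng5 stood at 0.572, 0.328 and 0.355 CPM in the controls and at 16.3, 13.4 and 9.60 in the mutants (log2 4.76 ± 0.19, edgeR adjusted p = 4.33e-05), and it was called without the set term too (adjusted p = 0.00435). Cacng3 had no read in any control and 1.02, 2.04 and 0.385 CPM in the mutants (adjusted p = 0.00922). Stac2, a scaffold of L-type channels, went from 4.32 ± 2.85 to 1.39 ± 0.86 CPM (log2 -2.21 ± 0.27, adjusted p = 0.00256).

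In the sodium leak channel complex 1 of 4 tested genes rose, Fam155a (6.07 ± 1.19 to 14.1 ± 0.59 CPM, log2 1.28 ± 0.18, edgeR adjusted p = 0.00469), and the pore gene Nalcn was not called (log2 0.68 ± 0.23, adjusted p = 0.0991). Of 11 genes of calcium release and store-operated entry only Stim1, the calcium sensor of the endoplasmic reticulum, changed (13.0 ± 1.41 to 20.2 ± 3.54 CPM, log2 0.51 ± 0.11, adjusted p = 0.0242). Of 13 tested calcium pumps and exchangers, Atp2b4 and Slc24a3 rose and Atp2b1 and Slc8a3 fell. The plasma membrane pump Atp2b1 went from 112 ± 31.5 to 69.3 ± 21.1 CPM (log2 -0.45 ± 0.07, adjusted p = 0.00798), and the exchanger Slc8a3 from 29.4 ± 7.73 to 11.3 ± 1.10 CPM (log2 -1.27 ± 0.22, adjusted p = 0.0105). Of 6 sodium pump subunits, 1 fell and none rose. Apart from Cacng5, no gene of these 6 lists was called without the set term.

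Markers of other cells that the samples could hold were read too, in the fit that called 7.92% of all genes as rises and 7.01% as falls. Pan-neuronal markers summed to 5219 to 8136 CPM in the controls and 4265 to 6813 in the mutants, and 4 of the 10 were called in edgeR. Stmn2 (log2 -1.37 ± 0.09, adjusted p = 0.000217), Gap43 (-1.14 ± 0.11, adjusted p = 0.000931) and Dcx (-0.48 ± 0.11, adjusted p = 0.0321) fell, and Snap25 (0.39 ± 0.08, adjusted p = 0.0176) rose. Markers of radial glia and intermediate progenitors summed to 147 to 321 CPM in the controls and 273 to 501 in the mutants, and 7 of the 12 rose (Sox2, Pax6, Hes1, Eomes, Neurog2, Mki67 and Top2a) while 3 fell (Vim, Fabp7 and Slc1a3). The oligodendrocyte lineage summed to 28.0 to 34.6 CPM in the controls and 41.0 to 58.2 in the mutants, with Sox10 at 0 in every library. Interneuron, astrocyte, endothelial, microglial and erythroid markers summed to at most 20.4 CPM in any library, and the sums overlapped between genotypes. Of these markers, 4 rose, each with a mean under 1 CPM in the mutants: Dlx5 (log2 3.08, edgeR adjusted p = 0.0180), Slc32a1 (4.31, adjusted p = 0.0137), Aldh1l1 (2.63, adjusted p = 0.0261) and Kdr (2.46, adjusted p = 0.00761). In the oligodendrocyte lineage Pdgfra, Cspg4 and Mbp rose. The part of these cells in the channel changes was not tested, and in bulk RNA fewer cells of a type and less RNA per cell cannot be told apart.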

How the data were processed

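Transcript tables from 6 libraries were used, made with a stranded total RNA kit, per the labels' protocols. Per the submitters' processing notes FastQC, kallisto and mm9 were used, with no versions. Per the file headers, each table gives for every transcript a length and effective length in bases, the estimated counts, deposited without further normalization, and the TPM values that the authors deposited, scaled by effective length and total. The 97251 transcripts were joined to GENCODE vM21 by identifier. Of these 84637 (87.0%) matched, and the unmatched ones held 6.85 to 8.58% of the counts and were left out. The estimated counts of the transcripts of a gene were added and rounded.

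Genes were tested with edgeR 4.0.16 in R 4.3.3 (TMM, filterByExpr, quasi-likelihood, prior count 0.125, Benjamini-Hochberg over 16985 genes) with genotype and library set as terms. The sets were read from length minus effective length. The SE is the log2 fold change over the square root of F. Changes within sets came from 1 model that pools the spread, and their difference from its interaction. The fits were tested on simulated data. Alternatives were no set term, other scalings and filters, DESeq2 1.42.0, limma 3.58.1 (voom), an effective length offset and leaving out each library. Estimated counts of near-identical genes can be divided wrongly between them. Each library counted as 1 replicate. Libraries 2 and 3 of the controls, the closest pair, differed by a chi-square of 16.8 per degree of freedom. This does not show that they came from different embryos.

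The channel genes, the lists of related genes and markers, and the design were chosen with earlier results of these data known. Every channel gene enters the counts, but a few genes are left unnamed and their own values are not reported here. Values in every library are given for called genes with a mean of at least 1 CPM in the higher genotype and for the most abundant gene of each role by TPM, with others added for description. Up to 3 called genes with the smallest p are given from each related list.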

Additional observations from a re-analysis of the deposited data

Results flagged for a closer look

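Among the genes reported, Zbtb18 itself had a different change in the 2 library sets. The change in the estimated-length set minus that in the fixed-length set was 3.75 on the log2 scale (adjusted p = 0.00963, edgeR interaction test), since the library labelled mutant 3 held 538 CPM of Zbtb18 and mutants 1 and 2 held 46.7 and 45.7. All 3 mutant libraries were below the controls, which held 1587 to 1902 CPM. No channel gene was called in the same test. With 3 libraries a genotype, single libraries were not tested as outliers.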

How the results depend on the processing

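Where a value below differs from the one reported, the cause was not tested unless named. Most counts of channel genes and transcripts below come without the share of all features called in the same setting. They describe the settings and are no result about the channel genes. The set term mattered most: without it 400 of all genes were called in place of 2537, and among channel genes 1, with 1 rise, 0 falls and 0 transcripts. DESeq2 called 4039 genes, 13 channel genes with 8 falls, 1 difference between sets and 25 channel transcripts, and limma-voom called 6 channel transcripts. With no filter on low counts 12 channel genes were called, with 5 falls, 8 calls within the fixed-length set and 2 differences between sets. Falls were 1 with the effective length offset and 5 after the removal of length trends.

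Leaving out each library in turn gave 1294 to 3034 calls over all genes, 5 to 15 among channel genes (15 without mutant 2), 3 to 8 rises and 1 to 7 falls. It gave 4 to 11 calls within the fixed-length set (11 without mutant 1), 4 to 14 within the estimated-length set, 0 to 6 differences between sets (6 without mutant 1) and 0 to 2 channel transcripts. A genotype left without a library in a set rests on the other set alone, and a lone library is assumed to vary like the others.

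Cacnb2 was called in all 16 alternatives, Cacna1g in 15, Scn3a and Cacna1i in 14, Cacnb4 in 11 and Cacna2d1 in 10. Directions reversed only for genes not called. Without the set term Cacnb3 was at 0.099, Cacna1f at -0.86, Cacna1a at -0.20 and Cacna1c at -0.18 (log2). With the effective length offset Cacna1b was at 0.030, Cacna1f at -1.11, Cacna1a at -0.090 and Scn9a at -0.47. Cacna1f was at -0.0059 with RLE factors, -0.024 with limma-voom and -0.13 after the removal of length trends. Leaving out a library gave -2.17 to 0.52 for Cacna1s, -0.11 to 0.42 for Cacna1f, -0.26 to 2.05 for Scn9a, -0.47 to 0.43 for Cacna1b, -0.69 to 0.15 for Cacna1e, -1.27 to 0.085 for Cacna1d and -1.29 to 0.20 for Cacna1h. The control share of Scn3a was 38.4% from CPM and 40.1% from protein-coding transcripts of at least 2000 bases, and that of Cacnb2 was 0.187% from the latter. No paired analysis was possible because the replicate numbers only follow the order of deposition. The genes with the fewest reads, such as Scn4a and Scn10a with 0 reads in control 1, are limited by depth.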
